A study of Homo sapiens with 2 samples.

Results

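Genes for 4 abundant small non-coding RNAs were examined in a chromatin immunoprecipitation and sequencing (ChIP-seq) list for sGCβ1, the haem-binding subunit of the nitric oxide receptor soluble guanylate cyclase. They were RMRP, RN7SK (7SK RNA), RN7SL2 (7SL RNA) and the U6 genes RNU6-1, RNU6-2, RNU6-7 and RNU6-8, 7 genes in all. An interval of the authors' list was given to a gene if it overlapped it or lay within 300 bp of it on hg19. Of the 4169 intervals in the list, 5 met this rule, and each belonged to a different gene. RMRP, RN7SK, RN7SL2, RNU6-1 and RNU6-2 thus had an interval, and RNU6-7 and RNU6-8 had none. In the same list, an interval lay within 300 bp of 6.06% of 64449 annotated genes and of 0.957% of 4491 small RNA genes and pseudogenes. Those 4491 are the annotation's snRNA, rRNA, misc_RNA, scRNA, vault RNA and ribozyme entries and its rRNA pseudogenes. Entries of the types snoRNA and microRNA are not among them.

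The cells were U-87 MG, an established human glioma line, overexpressing sGCβ1, and they received no treatment. There was 1 library of chromatin recovered with an anti-sGCβ1 antibody and 1 input library, made without antibody from the same overexpressing cells, so no library came from cells without overexpression. The labels do not say what drives the overexpression or whether the cells are a single clone. All values below are from the interval list of the ChIP library. No file of the input library was used here, the number of reads is unknown and there is no replicate, so values stand without replicate error and no p-value is given. The genes were chosen by the presence of intervals in this very list, so the presence, height and score of those intervals are a description and support nothing.

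All 7 genes are transcribed by RNA polymerase III. U6, 7SK and RMRP have promoters that lie wholly upstream of the transcribed sequence. These hold a TATA box, which binds the TATA-binding protein, a proximal sequence element (PSE), which binds the factor SNAPc, and a distal element, often with an octamer that binds POU2F1. The genes of the other major spliceosomal snRNAs also have a PSE, but no TATA box, and are transcribed by RNA polymerase II. The 7SL gene combines upstream elements with elements inside the gene.

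The 80 bases before each gene start are shown for all 7 genes, because the promoters of the genes with an interval can be read beside those of RNU6-7 and RNU6-8, which had none. They come from GRCh37, the same build as hg19, read 5′ to 3′ on the strand of the gene. Their places are chr9:35658015-35658094 (minus strand) for RMRP, chr6:52860338-52860417 (plus) for RN7SK, chr14:50329568-50329647 (minus) for RN7SL2, chr15:68132384-68132463 (minus) for RNU6-1, chr19:1021441-1021520 (plus) for RNU6-2, chr14:32671171-32671250 (plus) for RNU6-7 and chr14:32672476-32672555 (minus) for RNU6-8. Capitals mark the PSE-like letters ACCNTNA and, nearer to the gene, the TATA-box letters TATAA or TTATA.
RMRP: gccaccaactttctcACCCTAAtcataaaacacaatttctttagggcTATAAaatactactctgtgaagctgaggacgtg
RN7SK: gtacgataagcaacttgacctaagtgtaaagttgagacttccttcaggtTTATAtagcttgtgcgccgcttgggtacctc
RN7SL2: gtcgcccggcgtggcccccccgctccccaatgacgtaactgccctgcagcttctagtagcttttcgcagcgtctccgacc
RNU6-1: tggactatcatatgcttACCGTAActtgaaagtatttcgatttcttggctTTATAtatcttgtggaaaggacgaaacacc
RNU6-2: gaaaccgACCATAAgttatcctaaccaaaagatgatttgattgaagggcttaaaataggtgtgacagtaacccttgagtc
RNU6-7: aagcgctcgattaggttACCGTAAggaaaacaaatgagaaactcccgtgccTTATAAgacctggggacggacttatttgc
RNU6-8: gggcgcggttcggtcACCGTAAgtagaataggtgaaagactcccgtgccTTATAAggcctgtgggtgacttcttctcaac

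TATA-box letters lay on the gene strand between -40 and -11 from the start in 5 of the 7 genes. Their first base was at -33 in RMRP, -31 in RN7SK, -30 in RNU6-1, -29 in RNU6-7 and -31 in RNU6-8. The same letters stood there in 5.44% of 20163 protein-coding gene starts. PSE-like letters between -75 and -41 were also found in 5 of the 7 genes, against 1.45% of protein-coding starts, with first bases at -65 in RMRP, -63 in RNU6-1, -73 in RNU6-2, -63 in RNU6-7 and -65 in RNU6-8. Among 15 other polymerase III genes, the TATA-box letters stood at that place in 5 and the PSE-like letters in 2. Among 16 snRNA genes transcribed by polymerase II these counts were 1 and 7. RNU6-2 had no TATA-box letters at that place, RN7SK no PSE-like letters, and RN7SL2 neither, which says only that these letters are absent from the windows.

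The octamer ATTTGCAT was found within 300 bases upstream of 4 of the 7 genes, RMRP, RNU6-1, RNU6-7 and RNU6-8, with both strands searched. It was also found at 2 of 15 other polymerase III genes and 7 of 16 polymerase II snRNA genes. Its share was 1.84% of protein-coding starts over the same length and 1.49% of the 300 bp windows around all interval summits. In all 4 genes the octamer read on the gene strand, from -217 to -210 in RMRP, from -221 to -214 in RNU6-1 and RNU6-7, and from -222 to -215 in RNU6-8. The 40 bases around it are shown with the octamer in capitals, from chr9:35658208-35658247 (minus strand), chr15:68132581-68132620 (minus), chr14:32671014-32671053 (plus) and chr14:32672674-32672713 (minus). The 40 bases at RNU6-7 and RNU6-8 are the same.
RMRP: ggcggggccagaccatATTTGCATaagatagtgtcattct
RNU6-1: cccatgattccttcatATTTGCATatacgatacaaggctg
RNU6-7: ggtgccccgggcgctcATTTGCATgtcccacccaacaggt
RNU6-8: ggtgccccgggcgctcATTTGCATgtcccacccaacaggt

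RMRP and RNU6-1, which had an interval, and RNU6-7 and RNU6-8, which had none, thus all held the 3 kinds of letters at similar places. The sequences around them differed: over the 80 bases shown, without gaps, RNU6-1 matched RNU6-2 at 33 positions, RNU6-7 at 32 and RNU6-8 at 23, and RNU6-7 matched RNU6-8 at 25.

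Further letters were searched in the 300 bases upstream on both strands. The E-box CACGTG and the words ACTACAA and CCCAGNAT of the ZNF143 type were in 0 of the 7 genes, against 8.06%, 3.24% and 5.44% of protein-coding starts. Anywhere in the 300 bases, TATAA or TTATA stood in 6 of the 7 genes and in 20.5% of protein-coding starts, and ACCNTNA stood in 5 of the 7 and in 26.5%. The T run TTTT, the kind of signal that ends polymerase III transcription, stood in 6 of the 7 and in 73.9%. Over all interval summits, those 3 shares were 25.9%, 32.5% and 85.0%. TATAA and TTATA are reverse complements, so each match counts on both strands.

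RMRP encodes the RNA of RNase MRP, a ribozyme complex that takes part in ribosomal RNA processing, and it is mutated in cartilage-hair hypoplasia. The gene lies at chr9:35657751-35658014 on the minus strand. Its interval, chr9:35656896-35659572, had a height of 180, where height is the largest fragment density that the authors give for an interval. Its mean density was 29.4 and its MACS score, minus 10 times log10 of p, was 2472. These placed it at rank 21 by height, 79 by mean density and 43 by score of the 4169 intervals. It was the tallest of the 5 intervals.

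RN7SK encodes 7SK, the RNA that holds the elongation factor P-TEFb in an inactive particle. On chr6:52860418-52860748, plus strand, it was covered by the interval chr6:52859469-52861419. The height was 79, the mean density 24.3 and the score 1443. By height it ranked 185, yet 133 by mean density and 105 by score, so its place was lowest by height.

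RN7SL2 encodes a 7SL RNA, the scaffold of the signal recognition particle that brings ribosomes to the endoplasmic reticulum. It lies at chr14:50329271-50329567 on the minus strand, and its interval was chr14:50328136-50330332. A height of 99, a mean density of 23.9 and a score of 1565 gave ranks of 129, 141 and 89. Of the 5 intervals it was the one counted by the authors as holding 2 CpG islands, the others holding 1 each.

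U6 is the snRNA at the catalytic centre of the spliceosome, and its copies differed from each other. The interval at RNU6-2 (gene chr19:1021521-1021627, plus strand, interval chr19:1020939-1022483) had a height of 105, a mean density of 29.3 and a score of 1293. RNU6-1 (gene chr15:68132277-68132383, minus strand, interval chr15:68131749-68133399) had the lowest of the 5, with a height of 44, a mean density of 14.7 and a score of 568. Those values put RNU6-2 at rank 116 by height and RNU6-1 at rank 372. RNU6-7 (chr14:32671251-32671357, plus strand) and RNU6-8 (chr14:32672369-32672475, minus strand), which point towards each other, had no called interval. The nearest interval was 191 kb from RNU6-7 and 192 kb from RNU6-8, with a height of 13.

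The order by height was RMRP, RNU6-2, RN7SL2, RN7SK and RNU6-1, with 4.09 times between the highest and the lowest. Without replicates it cannot be said which neighbours in this order differ beyond error. The order by mean density began likewise with RMRP and RNU6-2, at 29.4 and 29.3, followed by RN7SK, RN7SL2 and RNU6-1. All 5 reached a height of 40, as did 9.86% of the list, and ranged from 3.14 times its median height of 14 at RNU6-1 to 12.9 times at RMRP. As the choice of genes rested on the same list, nothing is read from this share. All 5 intervals overlapped their gene, so none depended on the 300 bp allowance. The closest interval beyond it was 7943 bp from RN7SL2.

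**Figure D1:**
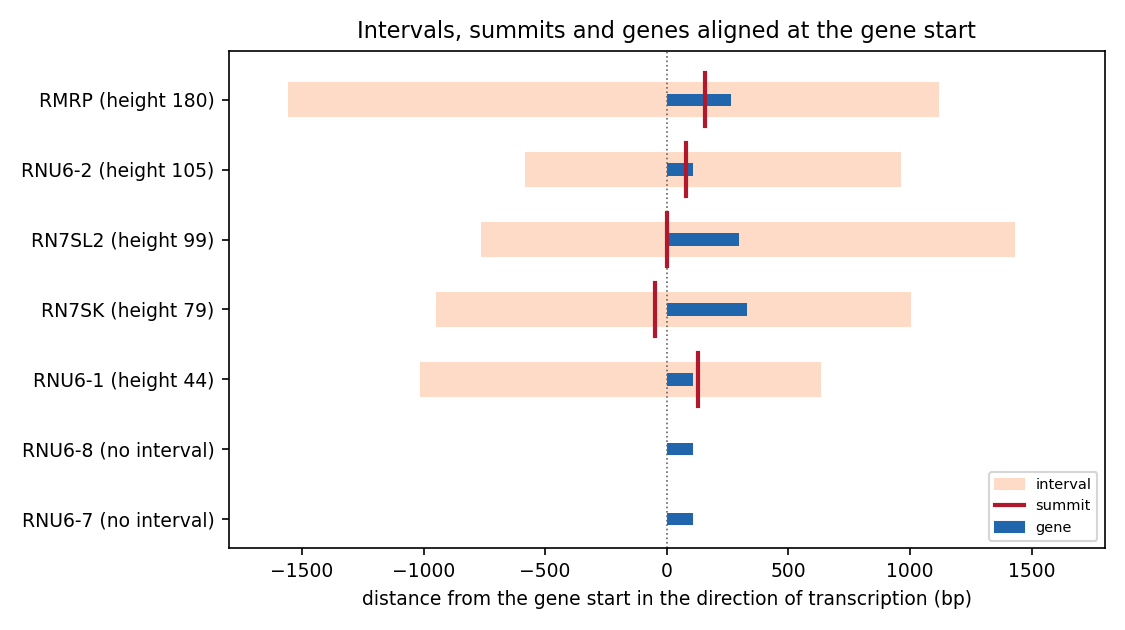
Intervals (pale bars), their deposited summits (red lines) and genes (blue bars) for the 7 genes, aligned at the gene start. The x axis is the distance from the gene start in bp, in the direction of transcription, and the genes run down by height. The 5 summits lie between -50 and 158 bp, and RNU6-8 and RNU6-7 have no interval.

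Summits lay at the genes themselves, as the plot aligned at the gene start shows. The distance from gene start to summit was 158 bp at RMRP, 79 bp at RNU6-2, -1 bp at RN7SL2, -50 bp at RN7SK and 127 bp at RNU6-1, negative values being upstream, with a median of 79 bp. All 5 summits were within 300 bp of the start. A summit lay so close to the start of 2.05% of all annotated genes and 0.579% of small RNA genes and pseudogenes, most of which have no interval. Among those with an interval within 300 bp, which is how the 5 were chosen, it was 33.8% of 3908 genes and 60.5% of 43 small RNA genes and pseudogenes. Those 43 include the 5 themselves and other small RNA genes described below, so they are no separate reference. The summits of RMRP and RNU6-2 fell inside the transcribed sequence, and that of RNU6-1 fell 21 bp beyond its end. Summit positions were multiples of 16 bp for 92.5% of the list, so distances are known only to about that grid. Taking the middle of each interval in place of the summit gave a median of 26 bp.

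Intervals reached well beyond the genes on both sides. They extended upstream of the start by 1558 bp at RMRP, 1016 bp at RNU6-1, 949 bp at RN7SK, 765 bp at RN7SL2 and 582 bp at RNU6-2. Downstream of the gene end they extended by 1135 bp at RN7SL2, 856 bp at RNU6-2, 855 bp at RMRP, 671 bp at RN7SK and 528 bp at RNU6-1. Their lengths ran from 1544 bp at RNU6-2 to 2676 bp at RMRP, with a median of 1950 bp, against 1296 bp in the whole list and 1507 bp among the 411 intervals with a height of 40 or more. Height over mean density was largest at RMRP, at 6.13, against 4.15 at RN7SL2, 3.58 at RNU6-2, 3.25 at RN7SK and 2.98 at RNU6-1. Among 48 intervals with a height within 20% of that of RMRP the median of this ratio was 4.53. Their median length was 1764.5 bp and their median mean density 38.5, against 2676 bp and 29.4 at RMRP. The larger ratio at RMRP thus went with a longer interval of lower mean density, and it does not measure how narrow the peak is.

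All 5 intervals held at least 1 CpG island in the authors' count, a property that the rule did not use. That was so for 35.0% of all intervals and 61.6% of those with a height of 40 or more. G and C content over 200 bp around the summit was not uniform, with 66.5% at RN7SL2, 65% at RMRP, 50.5% at RNU6-2, 43% at RN7SK and 40% at RNU6-1, on both sides of the list's median of 50%.

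Start sites of protein-coding genes shared 3 of the 5 intervals. CCDC107, a coiled-coil protein gene, starts 273 bp from the start of RMRP on the opposite strand. GSTA4, a glutathione transferase gene, starts 316 bp from RN7SK, and TMEM259, listed by the authors as C19orf6, starts 343 bp from RNU6-2, again on opposite strands. In each of the 3 the summit was nearer to the small RNA gene: it lay at -431 bp from the annotated start of CCDC107, at -266 bp from that of GSTA4 and at -422 bp from that of TMEM259. How much of each height belongs to either gene of a pair cannot be told apart. RN7SL2 and RNU6-1 lay 10.0 kb and 20.3 kb from the nearest protein-coding start, NEMF and SKOR1. RNU6-7 and RNU6-8 were farther away, 126 kb from the starts of ARHGAP5 and AKAP6.

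Further genes were assigned to these intervals in the deposited list at longer distances. They were SIT1 and C9orf100, now ARHGEF39, for RMRP, at -6909 and 7422 bp, ICK, now CILK1, for RN7SK, at 66232 bp, SDCCAG1, now NEMF, for RN7SL2, at -10029 bp, LBXCOR1, now SKOR1, for RNU6-1, at 14315 bp, and CNN2 for RNU6-2, at -4698 bp. RNU6-2 itself is not named in that list, and its interval was found by position.

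Reads were kept only if they aligned at a single place, which matters for genes with many near-identical copies. Words of 75 bases, the read length, were therefore looked up in the whole genome. Inside all 4 U6 genes examined, 0% of such words were found once, and a word occurred at up to 14 places. Inside RN7SL2 the share of words found once was 14.8%, inside RN7SK 36.6% and inside RMRP 100%. In the 300 bp on either side of each of the 7 genes it was 100%. RNU6-7 and RNU6-8, with no interval, thus matched RNU6-1 and RNU6-2 in this respect, both in the gene and beside it. Words were compared without mismatches, whereas the authors allowed up to 2, so the shares are upper bounds.

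**Figure D2:**
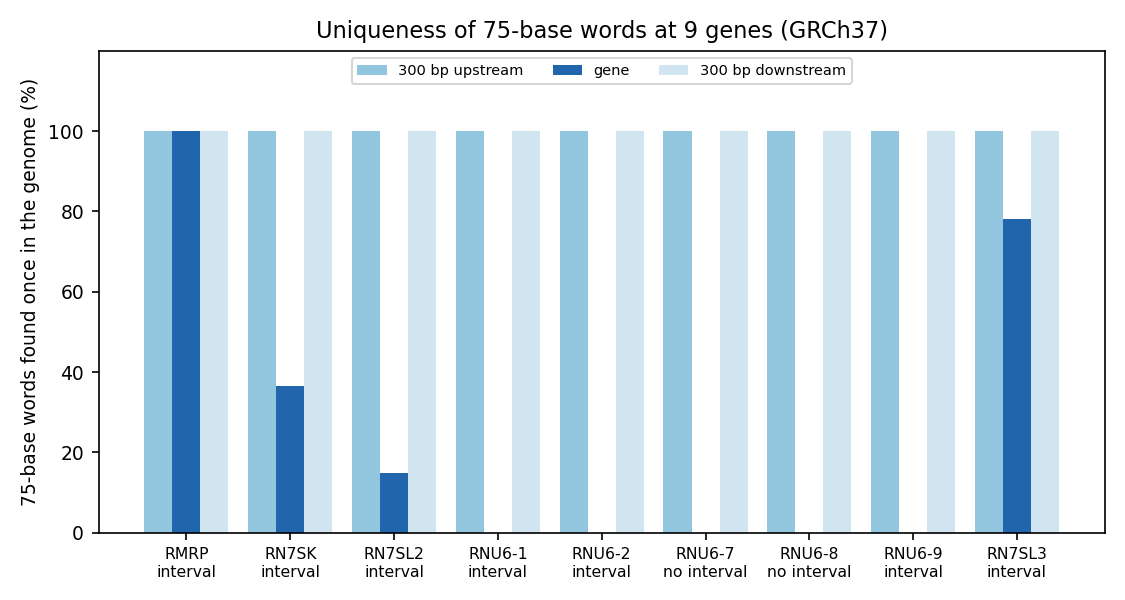
Share of 75-base words found once in the genome (y axis, percent) upstream of, inside and downstream of the 7 genes and of RNU6-9 and RN7SL3 (x axis). Flanks are 300 bp long. All flanks stand at 100%, and the U6 genes, with or without an interval, stand at 0% inside the gene.

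Most annotated copies of these families, most of them pseudogenes, had no interval. Of the 1328 annotated U6 copies other than the 4 genes examined, 2 had an interval within 300 bp (0.151%, exact 95% interval 0.0182 to 0.543). These were RNU6-9, with a height of 54 and its summit at -12 bp, and RNU6-1272P, with a height of 13 and its summit 635 bp from the start, in an interval that the authors assign to KIAA1549. With the 4 genes examined included, 4 of 1332 U6 copies had an interval (0.300%). The share was 0.957% for the small RNA genes and pseudogenes defined above, which also include the genes examined. Of the 1328 copies, 91.3% had at least 90% of upstream words found once. The exact intervals cover counting error only.

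Among the 860 annotated 7SL copies other than RN7SL2, 6 had an interval (0.698%, exact 95% interval 0.256 to 1.51). RN7SL3, 7943 bp from the RN7SL2 gene measured to its interval, had a height of 76 and its summit at 56 bp. The other 5 were pseudogenes with heights of 40 at RN7SL866P, 27 at RN7SL533P, 19 at RN7SL30P, 16 at RN7SL346P and 13 at RN7SL487P, and the closest of these 5 summits to its copy's start was that of RN7SL346P, at -393 bp. RN7SL2 and RN7SL3 differ at 11 of 297 positions without gaps. Inside RN7SL3, 78.0% of words were found once, against 14.8% inside RN7SL2, whose interval was the taller.

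Of the 295 annotated 7SK copies other than RN7SK, 2 had an interval (0.678%, exact 95% interval 0.0822 to 2.43). At RN7SKP88 the height was 45 and the summit at -1627 bp, and at RN7SKP114 the height was 21 and the summit at -876 bp, with the start of UBAP2 closer. Of the 5 annotated RMRP copies other than RMRP, 0 had one (exact 95% interval up to 52.2%). In the 4 families together, the copies with a summit within 300 bp of their start were the 5 genes described above, RNU6-9 and RN7SL3.

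Other genes transcribed by polymerase III were next set beside these 7, by a list fixed with earlier results of these data known. Of 15 such genes in the annotation 12 had an interval (80%, exact 95% interval 51.9 to 95.7), against 0.957% of small RNA genes and pseudogenes and 6.06% of all annotated genes. Those without one were the 5S ribosomal RNA genes RNA5S1, RNA5S9 and RNA5S17. The annotation holds 17 copies of 5S, of which 0 had an interval, so the share depends on how many are listed. As the list was fixed with these data known, the share is a description and supports nothing. In all 12 the summit was within 300 bp of the start, from -15 to 106 bp. Heights ran from 37 to 193, with a median of 81.5, against 44 to 180 with a median of 99 at the 5 intervals examined, so the ranges overlapped. The highest were the vault RNA genes VTRNA1-3 (193), VTRNA1-2 (129), VTRNA2-1 (106) and VTRNA1-1 (96). The 4 Y RNA genes, whose RNAs bind the Ro protein, had 90 at RNY1, 87 at RNY3, 72 at RNY4 and 63 at RNY5. RNU6ATAC, of the minor spliceosome, had 59, RNU6-9 54 and BCYRN1, a neuronal RNA gene, 37. Protein-coding genes are assigned to some of these 12 intervals too, such as MED16 at RNU6-9 and WDR5 at RNU6ATAC. How much of such a height belongs to the small RNA gene cannot be told apart. CpG islands were fewer there: 5 of these 12 intervals held 1 or more, compared with 5 of 5 at RMRP, RN7SK, RN7SL2, RNU6-1 and RNU6-2.

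The annotation has no entry for RPPH1 and RN7SL1, but the authors' list names both. TRU-TCA1-1, the only tRNA gene looked for, is in neither under that symbol, so no tRNA gene entered the comparison. RPPH1, the RNA of RNase P and a relative of RMRP, had an interval of height 59 with its summit 146 bp inside the gene, and PARP2 starts nearby. RN7SL1 had one of height 75 with its summit 302 bp from the gene start, and RPS29 is assigned to it too. The 3 genes RN7SL1, RN7SL2 and RN7SL3 thus had heights of 75, 99 and 76.

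The snRNA genes that share the PSE but are transcribed by polymerase II had lower intervals. Of 16 in the annotation 8 had an interval within 300 bp (50%, exact 95% interval 24.7 to 75.3), against 0.94% of 1914 annotated snRNA entries, and RNU4-1 and RNU4-2 shared theirs. Heights were 35 at RNU2-2P, 23 at RNU1-2, 15 at RNU5B-1, 13 at RNU4-1 and RNU4-2, 12 at RNU5A-1, and 11 at RNU4ATAC and RNU7-1. All lay below the 44 of RNU6-1, the lowest of the 5 intervals, and the 37 of BCYRN1. Scores were 79.3 to 394 there, against 568 to 2472 at the 5 intervals. The authors' list adds RNU11 and RNU12, both with a height of 13. RNU2-1, also looked for, is in neither the annotation nor that list under this symbol.

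Summits at these snRNA genes ranged from -1366 to 957 bp from the start, against -50 to 158 bp at RMRP, RN7SK, RN7SL2, RNU6-1 and RNU6-2. The -1366 bp is that of RNU4-2, measured to the summit it shares with RNU4-1, which lies at -32 bp from RNU4-1. A summit lay within 300 bp of the start of 4 of the 16 snRNA genes (25%), against 0.575% of annotated snRNA entries. Among those with an interval it was 4 of 8, and 61.1% of 18 annotated snRNA entries. The 18 take in snRNA genes of both polymerases, RNU6-1 and RNU6-2 among them, so they are no separate reference. Of the 8, that of RNU2-2P, at 97 bp, was the tallest. Its interval is also assigned to STX5, WDR74 and SNHG1 in the authors' list. Others are shared as well, such as that of RNU4ATAC with CLASP1 and that of RNU7-1 with ATN1, C12orf57 and PTPN6. Their heights cannot be given to the snRNA genes alone. The proportion of unique words also differed between the genes, and its part in this comparison was not tested. In 10 of the 16 snRNA genes every word in and within 300 bp of the gene was found once, and 7 of these 10 had an interval, with heights from 11 to 35. Of the remaining 6, all of them U1 genes, 1 had an interval, at RNU1-2.

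**Figure D3:**
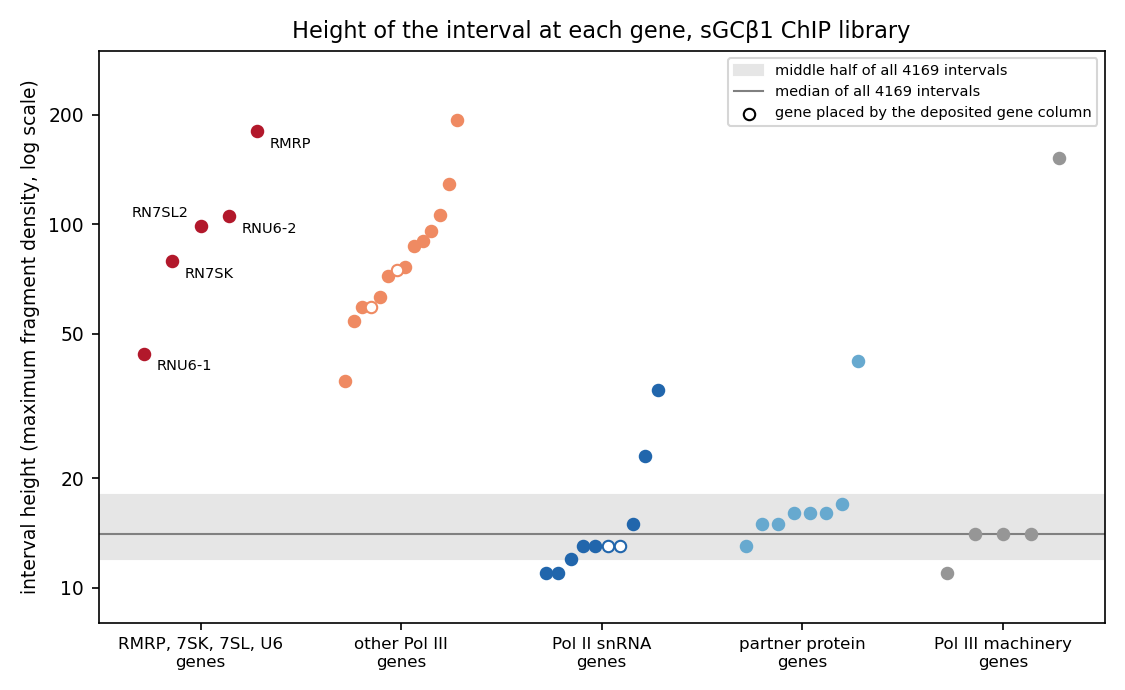
Height of the tallest interval at each gene (y axis, log scale) in 5 gene groups, with 1 point per gene. Open points are genes placed by the authors' gene column, the line is the median of all intervals, 14, and the grey band spans 12 to 18. RMRP, RNU6-2, RN7SL2, RN7SK and RNU6-1 range from 44 to 180, the polymerase II snRNA genes from 11 to 35.

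**Figure D4:**
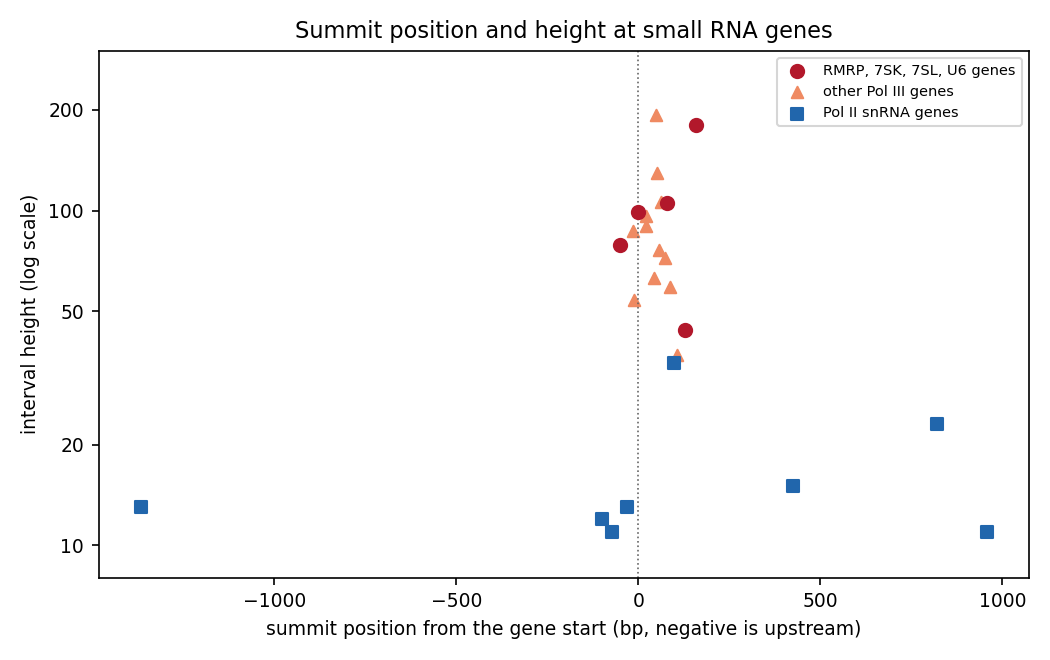
Summit position from the gene start in bp (x axis, negative is upstream) and interval height (y axis, log scale) at small RNA genes found in the annotation, 1 point per gene. Points of polymerase III genes lie between -50 and 158 bp, whereas squares of polymerase II snRNA genes reach from -1366 to 957 bp. The square at -1366 bp is RNU4-2, which shares its interval with RNU4-1.

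Intervals at genes for the proteins that work with these RNAs had heights from 13 to 42, with a median of 16 near the list's median of 14. Of 39 partner protein genes, 8 had an interval within 300 bp of the gene (20.5%, exact 95% interval 9.30 to 36.5), against 13.2% of 20163 protein-coding genes. With the summit within 300 bp of the gene start it was 5 (12.8%, 4.30 to 27.4), against 4.65%. Highest was LSM4, a subunit of the ring that binds the U6 end, with 42. CCNT1, the cyclin of P-TEFb, had 17, HEXIM1, its inhibitor in the 7SK particle, 16, and RPP14, of RNase P, 16. LSM5 had 16, PRPF4 15, TUT1, the terminal uridylyltransferase of U6, 15, and SRP54, of the signal recognition particle, 13. The summits farther than 300 bp from the start were those of LSM5, at 5311 bp, SRP54, at 901 bp, and HEXIM1, at -562 bp. Some intervals are assigned to other genes too, such as MTA2 and EML3 at TUT1 and SLC31A1 and CDC26 at PRPF4. LARP7 and MEPCE, which bind 7SK, had none.

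Of 32 polymerase III machinery genes, 5 had an interval within 300 bp (15.6%, exact 95% interval 5.28 to 32.8), near the 13.2% of all protein-coding genes. A summit within 300 bp of the start was found for 3 (9.38%), against 4.65%. POLR3E, a polymerase III subunit, stood far above the rest with 152. POLR3GL, SNAPC1, a subunit of SNAPc, and ZNF143, an activator of snRNA genes, had 14 each, and POLR3D had 11. The genes of the TATA-binding protein, TBP, and of the octamer-binding POU2F1 had none.

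The intervals most like those of the 2 tallest of the 5 were at starts of protein-coding genes. Likeness was the distance over log2 height, log2 mean density and log2 length in units of their SD over the list, in 1 sample. For RMRP the nearest were those at FKBP15 and SLC31A1 (height 195, distance 0.144), at BAG5 and C14orf153 (192, 0.461) and at POLR3E, with EEF2K also assigned (152, 0.479). For RNU6-2 they were those at C1orf123 (115, 0.171), at MRFAP1 (115, 0.200) and at HAX1 (96, 0.285).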

How the data were processed

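One interval list was used, from the sGCβ1 ChIP library. Per the design text of the labels, 75-nt reads were placed on hg19 by BWA, run with its defaults, kept if they passed the purity filter, had at most 2 mismatches and a single alignment, and intervals were called with MACS. Tool versions were not given in the sources used here, nor was any use of the input as the MACS control. Per the file headers, the peak value (height) and average value are density signals deposited by the authors, and the authors' score is the p-value that MACS gave, as its log10 times minus 10. They were ranked only within this list. Positions were used as deposited.

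Genes came from GENCODE 44 mapped to GRCh37, and current symbols from RefSeq. Overlaps, exact Clopper-Pearson intervals (95%), motif searches and 75-base word counts (both strands) were computed in Python 3.11.15 with numpy 2.4.6, pandas 2.3.3, scipy 1.17.1, pysam 0.24.0 and numba 0.67.0. The overlap search, motif search and word counts were checked on simulated data, the exact intervals were not. The genes, lists and naming rule were chosen with earlier results of these data known. Lists name every small RNA gene with an interval, up to 10 protein genes and up to 5 further family copies by height. LARP7, MEPCE, TBP and POU2F1, which had no interval, were named after this was seen. Read depth is unknown.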

Additional observations from a re-analysis of the deposited data

How the results depend on the processing

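The count of 5 of 7 genes with an interval was the same with direct overlap, with 1000 bp, and among intervals at or above the median score (99.2) or its upper quartile (141). That of 12 further polymerase III genes was 12 with direct overlap, 1000 bp, the summit within 300 bp of the start and the upper quartile of score. By the authors' gene symbols, an alternative added after the data were seen, it was 9. The other 3 lists then gave 9, 7 and 5 in place of 8, 8 and 5. Counts by symbol are of a different set, as they take in genes absent from the annotation. These were RN7SL1 and RPPH1 among polymerase III genes and RNU11 and RNU12 among polymerase II snRNA genes. With the summit within 300 bp of the start, polymerase II snRNA genes with an interval numbered 4 in place of 8, partner protein genes 5 in place of 8 and machinery genes 3 in place of 5. In the upper quartile of score they numbered 4, 3 and 2. Fewer intervals enter under either setting. Within 1000 bp, 7 U6 copies had an interval, RNU6-1 and RNU6-2 included, in place of 4. The median distance from gene start was 26 bp from interval middles and 79 bp from summits. Percentiles of the 5 intervals by height, mean density or score were all at least 90.9. Of 10 alternative values, 8 lay outside an exact binomial interval around the percentile by height. That yardstick treats the intervals of the full list as random draws and does not measure error between libraries. Counts and percentiles have no direction, so whether such a result reversed could not be tested. The median distance from gene start was downstream both from interval middles and from summits. No paired analysis was possible because there is 1 ChIP library. Sequencing depth is unknown, so its limit on the calls was not measured.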

Other observations

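The 5S ribosomal RNA genes, also transcribed by polymerase III, had no interval: 0 of 17 annotated copies, which stand in a tandem array. In 2 of the 3 copies checked, RNA5S1 and RNA5S17, 0% of the 75-base words in and within 300 bp of the gene were found once, and in RNA5S9 11.6% were. The part of this in the absence of intervals was not tested.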
